A study of Mus musculus with 78 samples.

Results

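The comparison described here is between the ligated left common carotid artery (LCA) of mice given atorvastatin and that of mice given vehicle, both taken 2 weeks after surgery. Its members were chosen by their labels: 5 arrays of atorvastatin mice, numbered 6 to 10, and 5 arrays of vehicle mice, numbered 1 to 5, out of 78 arrays in all. Each array is 1 artery of 1 mouse, so the groups hold different animals and were compared unpaired. Atorvastatin was given by mouth every day at 10 mg/kg/day, starting 2 days before surgery, and the controls received vehicle on the same schedule. Every mouse of both groups had the LCA partially ligated, and the right common carotid artery (RCA) of the same mouse served as the artery without ligation. RNA enriched for endothelium was flushed from each artery and hybridised to Affymetrix mouse expression arrays. Strain, age and sex are not given in the labels used here, and extraction and profiling were done in 4 batches that the labels do not assign to arrays.

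Statins block the rate-limiting step of the mevalonate pathway, which supplies cholesterol and isoprenoids. Cells short of sterols normally raise the transcription of sterol synthesis genes, and in endothelial cells statins are known to raise the flow-responsive factor Klf2. Partial ligation leaves the carotid with low, oscillating flow, under which the endothelium loses flow-protective genes, takes on adhesion molecules and recruits leukocytes.

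Values are deposited log2 expression, so a difference of 1 is a doubling of the signal. Array medians lay between 4.59 and 4.77, and 11344 genes were tested. A gene passed the test when its limma p, adjusted by Benjamini-Hochberg over all 11344 genes, was under 0.05. The marker lists matched the label in part. The mean over 15 endothelial markers was 9.01 to 9.51 in the LCA of atorvastatin mice and 9.04 to 9.33 in that of vehicle mice. Smooth muscle markers were present too, and more so than in the other artery: their mean ranged from 9.36 to 10.31 in the LCA of atorvastatin mice against 6.19 to 6.83 in their RCA. Macrophage markers averaged 8.07 ± 0.31 (SD, n = 5) in the LCA and 4.49 ± 0.32 (SD, n = 5) in the RCA of the same atorvastatin mice. RNA of several cell types was thus measured together in both groups, and for every result below fewer cells of a type and less RNA per cell cannot be told apart.

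One vehicle array stood apart from the other 9. The LCA of vehicle mouse 2 correlated with the others at 0.924 to 0.955 over the tested genes, while all other pairs lay between 0.967 and 0.991. Its mean over the smooth muscle markers was 6.39, against 9.20 to 10.22 in the other 4 vehicle mice. The smooth muscle integrin subunit Itga8 was at 6.97 there and at 11.70 on average in the other 4, and the smooth muscle myosin Myh11 at 5.85 and 10.54. Genes on the opposite side included Rag1, the recombinase of developing lymphocytes, at 8.55 against 4.04, the fibroblast matrix gene Dpt at 10.49 against 6.57, and the lymphatic receptor Lyve1 at 7.94 against 4.42. In the 20 genes that were highest in the LCA over the RCA of atorvastatin mice, the median artery difference was 1.92 in vehicle mouse 2 and 4.24 to 5.93 in the other 4 vehicle mice. For the 20 genes lowest in the LCA it was −2.09 in that mouse and −3.54 to −4.66 in the other 4. Mal, a membrane protein of lymphocytes and epithelia, was at 8.59 in this array, at 8.34 to 9.90 in the RCA of all 10 mice and at 3.46 to 6.49 in the other 9 LCA arrays. Mmp13, in contrast, was at 8.01 in this array, the highest of the 10 LCA arrays, and at 2.98 in the RCA of the same mouse. Whether this preparation was purely of the ligated artery was not tested. Differences are therefore given with all 10 arrays and, where it matters, without this mouse.

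**Figure D1:**
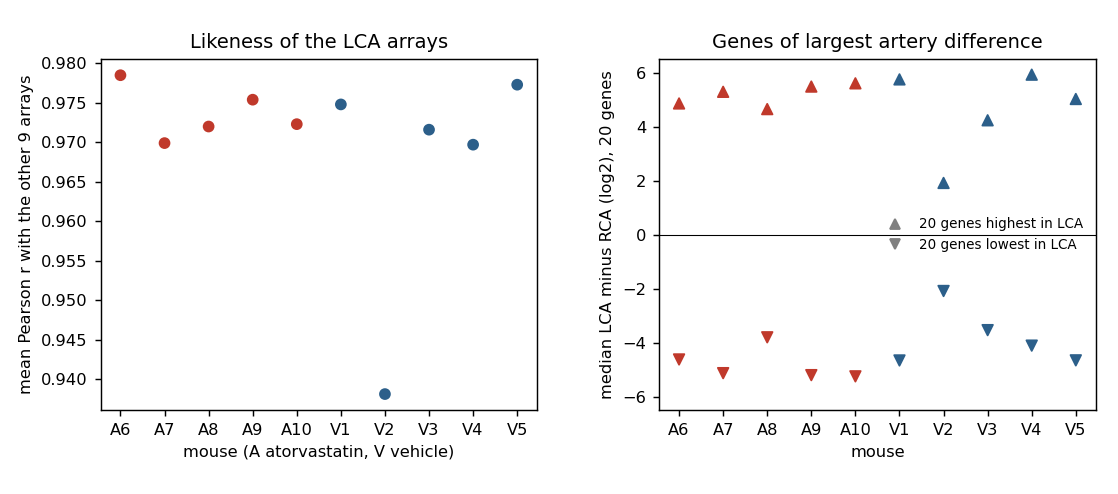
The left panel plots, for each of the 10 LCA arrays (A, atorvastatin; V, vehicle), the mean Pearson correlation with the other 9 over the tested genes; vehicle mouse 2 is at 0.938 and the others at 0.970 to 0.979. The right panel plots the median LCA minus RCA difference (log2) of 20 genes highest and 20 genes lowest in the LCA of atorvastatin mice; the atorvastatin mice chose these genes, so only the vehicle points are free of that choice, and vehicle mouse 2 lies nearest to 0 on both sides.

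At 2 weeks no gene passed the test between atorvastatin and vehicle in the ligated carotid (0 of 11344, 0%). The smallest adjusted p was 0.0574, for Spic. At an unadjusted p under 0.05 there were 313 genes, or 2.76% of those tested, of which 131 (1.15%) were higher and 182 (1.60%) lower with atorvastatin. The 5 values of one group lay wholly above or below those of the other for 97 genes (0.855%), 51 higher (0.450%) and 46 lower (0.406%). Over all genes 5463 were higher and 5875 lower by any amount. The median difference was −0.007, with quartiles of −0.12 and 0.10, and 36 genes were higher and 39 lower by at least 1 log2 unit. The 95% confidence interval of a gene had a median half-width of 0.45, and for 9912 genes (87.4%) it lay wholly within 1 log2 unit of 0.

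**Figure D2:**
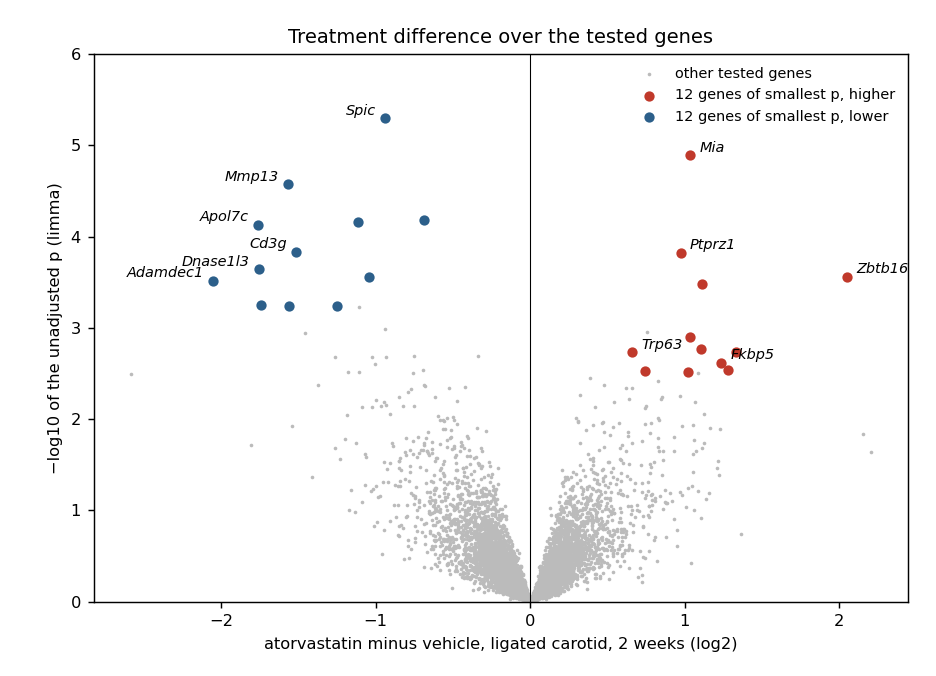
Each point is 1 of 11344 genes, with the atorvastatin minus vehicle difference in the ligated carotid (log2) on the x axis and −log10 of the unadjusted limma p on the y axis. The 12 genes of smallest p in each direction are coloured; Spic lies highest, with an adjusted p of 0.0574, and none passed the adjusted threshold.

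The treatment difference was also tested against the artery. In the test of atorvastatin against vehicle on the LCA minus RCA difference within each mouse, Mmp13 and Dnase1l3 passed (2 of 11344, 0.0176%), both with a smaller rise in the ligated artery under atorvastatin. These calls depended on the fit, which pools the spread of the artery difference over the mice of all 8 groups. With only the 2-week mice in the fit neither passed, as given below. With all arrays of both arteries in 1 fit and the replicate block left out, neither passed by limma (adjusted p = 0.354 for Mmp13 and 0.554 for Dnase1l3). Neither gene was kept by a stricter filter on low values. At an unadjusted p under 0.05 the same test gave 495 genes (4.36%). Next in order, and not past the threshold, came Plek2 (interaction −1.34), Apol7c (−1.65) and Cxcl9 (−2.67), each with an adjusted p of 0.0697.

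Mmp13 is an interstitial collagenase that cleaves fibrillar collagen. In the LCA it read 6.23, 4.95, 6.09, 5.12 and 4.91 in atorvastatin mice 6 to 10 and 6.33, 8.01, 6.83, 7.34 and 6.63 in vehicle mice 1 to 5. All 5 atorvastatin values lay below all 5 vehicle values, although mouse 6 of the first group and mouse 1 of the second differed by little. In the RCA the gene was low in every mouse, from 2.76 to 3.69, below the array medians. The LCA exceeded the RCA by 4.15 with vehicle and by 2.34 with atorvastatin, so the rise was smaller by 1.80 (interaction −1.80, SE 0.30, adjusted p = 0.00564 by limma). Within the LCA alone the difference was −1.57 (SE 0.32, adjusted p = 0.101), which did not pass.

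Dnase1l3 is a secreted nuclease that digests DNA in chromatin released from dying cells and is made mainly by dendritic cells and macrophages. Its LCA values were 5.0, 5.13, 4.59, 3.76 and 4.03 with atorvastatin and 5.35, 6.95, 7.58, 5.85 and 5.54 with vehicle. Again the groups did not overlap, and mice 2 and 3 of the vehicle group were the highest. The RCA read 3.22 to 3.94 over all 10 mice, below the array medians. The rise from RCA to LCA was 2.78 with vehicle and 0.85 with atorvastatin (interaction −1.93, SE 0.32, adjusted p = 0.00564 by limma). The LCA difference itself was −1.75 (SE 0.43, adjusted p = 0.287).

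Both interaction calls were kept without vehicle mouse 2, at −1.58 for Mmp13 and −1.74 for Dnase1l3. The Mmp13 call was lost without atorvastatin mouse 7 (−1.53, adjusted p = 0.0570) and without both vehicle mice 2 and 4 (−1.45, adjusted p = 0.163), while that of Dnase1l3 was kept in both settings. Both were lost when only the 2-week mice entered the fit (adjusted p = 0.608 for each). Of 14 macrophage markers 0 passed, as did 0 of all 11344 genes in the LCA. Counts of markers that passed thus carry no information here. The median LCA difference of the macrophage markers was −0.10, against −0.01 for all genes. The mean of the list was 7.63 to 8.40 with atorvastatin and 7.95 to 8.46 with vehicle. Dendritic cell markers had a median LCA difference of −0.07 over 5 tested, from −0.55 for Itgax to 0.23 for Flt3. Of these 3 were lower, 2 were higher and 0 passed. Adamdec1 and Cd83, described below, are not in that list. The part of these cell types in the Mmp13 and Dnase1l3 values was not tested. In mice with the number 7 in their sample titles, atorvastatin mice 8 and 10 and vehicle mouse 3, the LCA difference was −1.32 for Mmp13 and −3.27 for Dnase1l3. The labels do not say what that number stands for.

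**Figure D3:**
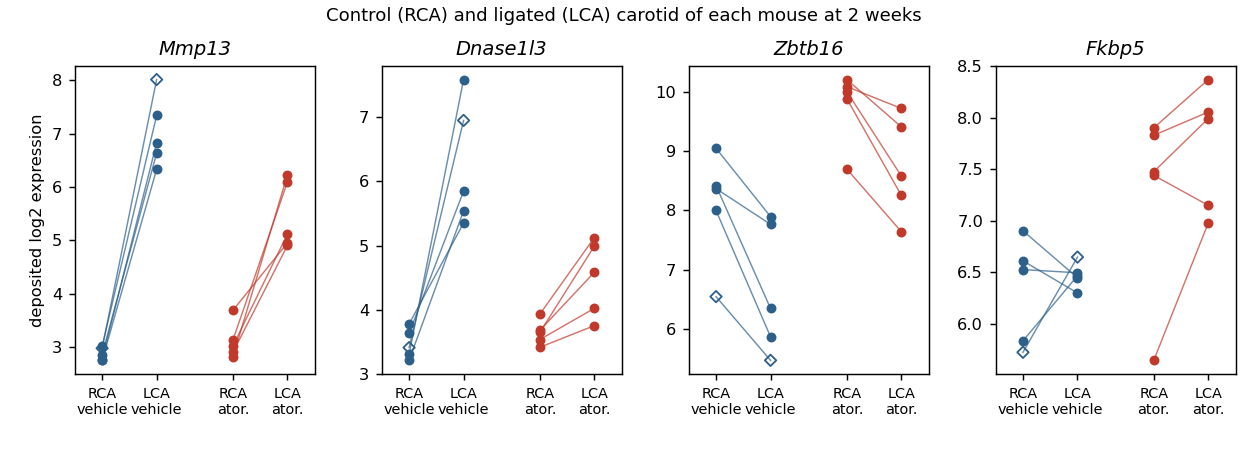
Deposited log2 expression of Mmp13, Dnase1l3, Zbtb16 and Fkbp5 in the RCA and LCA at 2 weeks, with a line for each mouse (5 vehicle in blue, 5 atorvastatin in red, vehicle mouse 2 as an open diamond). The lines of Mmp13 and Dnase1l3 climb less with atorvastatin, while Zbtb16 was 2.05 higher in the LCA and 1.70 higher in the RCA.

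Of the 12 genes of smallest p among those lower with atorvastatin, none passed the test in the LCA. Spic, an Ets-family transcription factor of macrophages and B cells, led. It read 4.75, 4.14, 3.96, 3.72 and 4.23 with atorvastatin and 5.26, 5.40, 4.79, 4.96 and 5.08 with vehicle, a difference of −0.94 (SE 0.17, adjusted p = 0.0574 by limma). The groups were apart but by little, with atorvastatin mouse 6 just below vehicle mouse 3. Leaving out vehicle mouse 2 gave −0.86. A second probe set of Spic differed by −0.19.

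Adamdec1, a metalloprotease-like protein of mature dendritic cells and tissue macrophages, had the largest difference among these 12. Its values were 5.14, 4.28, 5.12, 4.49 and 4.08 with atorvastatin and 6.44, 8.48, 6.26, 6.60 and 5.60 with vehicle, a difference of −2.05 (SE 0.51, adjusted p = 0.288). No atorvastatin mouse reached the lowest vehicle mouse, and vehicle mouse 2 was the highest. The gene was 3.04 higher in the LCA than the RCA with vehicle and 1.0 higher with atorvastatin.

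Apol7c, an apolipoprotein L family member, read 3.62, 3.45, 3.07, 3.16 and 3.16 with atorvastatin and 4.04, 6.67, 5.61, 5.29 and 3.66 with vehicle. The groups touched almost at 3.62 and 3.66, while 3 vehicle mice were far higher, and the difference was −1.76. All atorvastatin values and those of vehicle mice 1 and 5 lay below the array medians, where signal over background limits the size of a difference. Amz1, a zinc metallopeptidase, had a small spread and groups apart: 5.38 to 5.87 with atorvastatin against 5.99 to 6.58 with vehicle, a difference of −0.69. Plek2, a pleckstrin family protein that binds membrane phosphoinositides and shapes actin, differed by −1.11 with groups that overlapped. Plek2 alone among these 12 was lower in the ligated than in the control artery with vehicle (−1.55), and with atorvastatin the deficit was larger (−2.89).

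The other lower genes had overlapping groups. Cd3g, a chain of the T cell receptor complex, read 4.62, 5.0, 4.10, 3.17 and 3.15 with atorvastatin and 5.26, 7.05, 6.48, 3.61 and 5.20 with vehicle. Vehicle mouse 4 lay inside the atorvastatin range, and the other 4 vehicle mice lay above it; the difference was −1.51. Tlr12, an innate receptor for profilin of protozoa, differed by −1.04, and Ccl22, the chemokine that attracts cells with Ccr4, by −1.25. Calhm6, a channel-family protein induced by interferon gamma, differed by −1.74, and Clec1b, the podoplanin receptor of platelets and some myeloid cells, by −1.56. Of the 12, 6 had groups that did not overlap, where 0.406% of all genes lay wholly lower. The 12 were chosen by p on these same arrays, which favours such groups. For 8 of the 12 the highest value was in vehicle mouse 2. Without that mouse the 12 differences ran from −0.76 to −1.86. All kept their direction, which the choice of these genes on the same arrays makes likely.

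In the vehicle mice 11 of these 12 genes were higher in the LCA than the RCA at an adjusted p under 0.05, where 1758 of all genes (15.5%) were higher and 1390 (12.3%) lower. The 12 genes of smallest p among those higher with atorvastatin, described next, were similar: 9 were higher in the vehicle LCA and 1 lower. Choosing genes lower with atorvastatin favours high vehicle LCA values, and choosing genes higher with it favours low ones. The artery comparison and the treatment comparison share the vehicle LCA arrays, so the values are only set side by side.

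Of the 12 genes of smallest p among those higher with atorvastatin, none passed either. Mia, a small secreted protein of cartilage and melanoma cells, had groups apart, with 5.67, 5.73, 5.99, 6.08 and 6.49 against 4.87, 3.78, 5.44, 5.41 and 5.28. The difference was 1.04 (SE 0.20, adjusted p = 0.0732 by limma) and 0.74 without vehicle mouse 2, which was the lowest. Mia was itself higher in the LCA than the RCA, by 1.84 with vehicle and 2.73 with atorvastatin.

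Zbtb16, a zinc finger repressor strongly induced by glucocorticoids, had the largest difference of the 12. In the LCA it read 7.64, 8.26, 9.72, 9.41 and 8.58 with atorvastatin and 7.90, 5.47, 6.35, 5.87 and 7.77 with vehicle, a difference of 2.05 (SE 0.51, adjusted p = 0.287). Vehicle mice 1 and 5 overlapped with atorvastatin mouse 6, and the remaining mice did not. In the RCA of the same mice it was higher by 1.70, and the difference between the arteries was 0.35 (SE 0.48, adjusted p = 1), which did not pass. A second probe set of Zbtb16 differed by 0.62 in the LCA. Fkbp5, the co-chaperone that restrains the glucocorticoid receptor and is induced by it, read 6.98, 7.99, 8.37, 8.05 and 7.15 against 6.45, 6.65, 6.30, 6.50 and 6.47. All atorvastatin mice lay above all vehicle mice, whose values were close together. The difference was 1.24 in the LCA (adjusted p = 0.909) and 0.94 in the RCA, where the groups overlapped, and the other probe sets of Fkbp5 gave differences down to 0.05.

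Trp63, a p53-family factor of epithelia, also had groups apart and lay close to the array medians, at 4.79 to 5.84 against 4.23 to 4.71. Ptprz1, a receptor phosphatase for pleiotrophin, differed by 0.97, and Optc, the small leucine-rich matrix protein opticin, by 1.11. Npy1r, the receptor through which neuropeptide Y constricts vessels, differed by 1.04. Hspb7, a small heat shock protein of heart and muscle, differed by 1.33, Cap2, an actin-regulating protein, by 1.10, Akap5, an anchor of protein kinase A, by 1.28 and Samd4, an RNA-binding repressor of translation, by 1.02. Gpr85, an orphan receptor, differed by 0.74. Several of these genes have further probe sets. The lowest difference of any probe set was −0.14 for Samd4, −0.01 for Trp63, 0.18 for Gpr85 and 0.25 for Npy1r. It was 0.77 for Cap2, 0.97 for Ptprz1, 1.21 for Akap5 and 1.33 for Hspb7. Of the 12 higher genes 3 had groups apart, where 0.450% of all genes lay wholly higher. These 12 were likewise chosen by p on the same arrays, which favours such groups. For 10 of the 12 the lowest value was in vehicle mouse 2. Without that mouse the differences ran from 0.59 to 1.75.

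**Figure D4:**
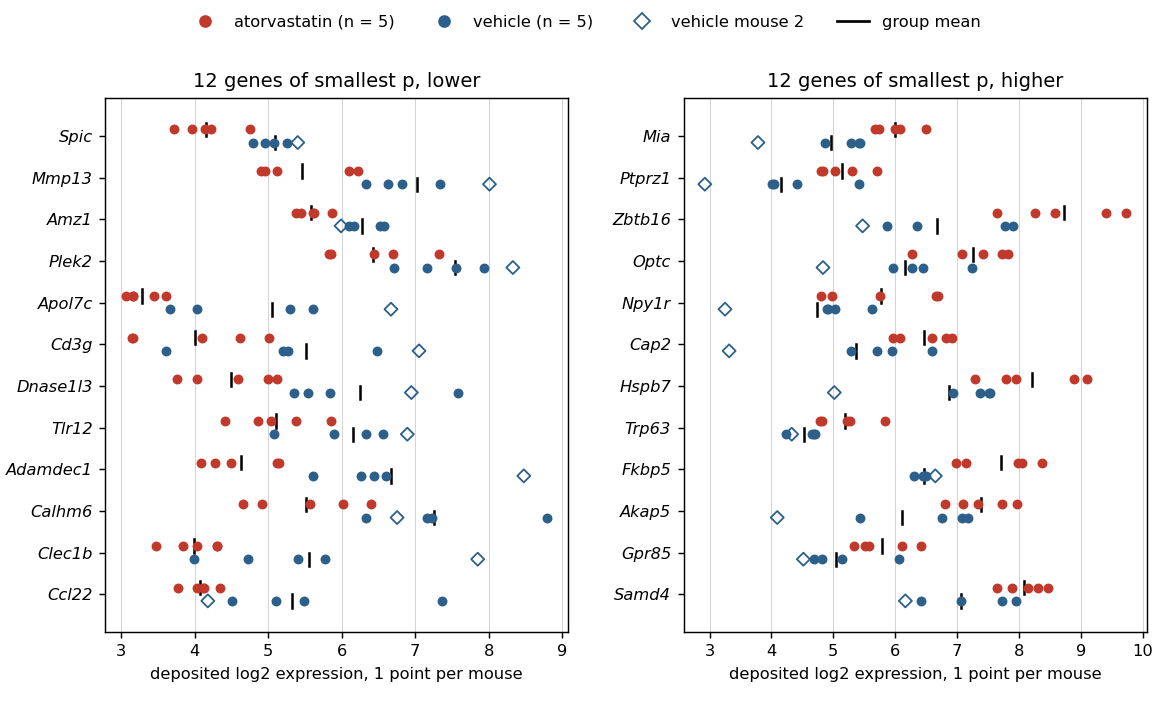
Deposited log2 expression of the 12 lower (left) and 12 higher (right) genes of smallest p in the ligated carotid at 2 weeks, 1 point per mouse with the group mean as a bar (red, atorvastatin, n = 5; blue, vehicle, n = 5; open diamond, vehicle mouse 2). Vehicle mouse 2 is the highest point for 8 of the 12 lower genes and the lowest for 10 of the 12 higher genes.

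The count of genes that passed depended on the array weights, on the arrays in the fit and on which mouse was left out. With weights estimated per array, which gave vehicle mouse 2 a weight of 0.541 against 1.08 to 3.17 for the other 9, 18 genes passed in the LCA, 3 higher and 15 lower. With both arteries in 1 fit and the mouse as a random block, 18 passed, 6 higher and 12 lower. That fit used no weights and gave LCA and RCA arrays 1 shared estimate of the spread of each gene. In both settings 11 passed: Mia and Zbtb16 higher, and Adamdec1, Amz1, Apol7c, Ccl22, Cd83, Dnase1l3, Mmp13, Plek2 and Tlr12 lower. Cd83, a surface protein of mature dendritic cells, lies outside the 24 leading genes and read 5.60 to 6.41 with atorvastatin and 6.63 to 7.68 with vehicle, with no overlap. Without vehicle mouse 4, 7 genes passed, including Cd3g, and without vehicle mouse 5 again 7, including Ptprz1. Without atorvastatin mouse 6, 4 passed, and without atorvastatin mouse 8, 1 passed. Without vehicle mouse 3, 2 passed. Leaving out any of the other 5 mice, vehicle mouse 2 among them, left 0.

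The lowest difference of all tested genes was that of Cxcl9, a chemokine induced by interferon gamma, which is named here after its values were seen. It read 4.89, 5.11, 3.18, 3.90 and 3.77 with atorvastatin and 5.72, 4.58, 9.66, 6.36 and 7.44 with vehicle. Vehicle mouse 2 lay inside the atorvastatin range and vehicle mouse 3 far above all others. The difference of −2.58 had an SE of 0.82 and an adjusted p of 0.914.

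Genes that statins are known for showed no called difference, as held for all genes tested. Of the 25 genes listed for sterol synthesis and uptake, 16 were tested, 8 higher and 8 lower with atorvastatin, with a median difference of 0.02 and none at an unadjusted p under 0.05. The mean of the list per mouse was 5.55 to 6.08 with atorvastatin and 5.74 to 5.88 with vehicle, so the treated mice lay on both sides of the controls. Sqle, squalene epoxidase, differed by 0.14 and was not above the array median on any of the 10 arrays. Idi1, the isopentenyl isomerase, differed by −0.08 and Insig1, the sterol sensor that holds back SREBP, by −0.00. Lss, lanosterol synthase, had groups apart with −0.40 but also lay below the median on all 10 arrays. Hmgcs1, the synthase at the entry to the pathway, was too low to be tested.

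Fatty acid synthesis genes were likewise close to 0, with 3 of 10 higher and a median of −0.09. In that list Scd1, the stearoyl desaturase, differed by −0.50. The cholesterol efflux and foam cell list leaned lower in all 14 tested members, with a median of −0.26 both with and without vehicle mouse 2, against −0.01 for all genes. Its only member at an unadjusted p under 0.05 was Nr1h3, the oxysterol receptor LXR alpha, at 5.66 to 6.08 with atorvastatin and 5.98 to 6.90 with vehicle (−0.54, adjusted p = 1). The per-mouse mean of the list was 7.53 to 7.97 against 7.81 to 8.34, with overlap. The cholesterol exporter Abcg1 differed by −0.31, the lysosomal lipase Lipa by −0.27 and the lipid droplet protein Plin2 by −0.25.

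Among the genes associated with laminar flow, 7 of 16 were higher and the median was −0.06. Klf2, the flow-responsive factor, read 8.53, 7.64, 9.44, 8.55 and 8.10 with atorvastatin and 8.54, 8.90, 9.99, 8.94 and 9.20 with vehicle. The groups overlapped and the atorvastatin mean was the lower, by 0.66 (−0.66, SE 0.28, unadjusted p = 0.0234, adjusted p = 1). Without vehicle mouse 2 it was −0.72. Its relative Klf4 differed by −0.73 with all mice and by −0.39 without vehicle mouse 2, at 10.29 the highest of the 10. Nos3, the endothelial nitric oxide synthase, differed by 0.04 (SE 0.20) and Thbd, the anticoagulant receptor thrombomodulin, by 0.33. Klk10, a flow-dependent serine protease, was above the array median only in vehicle mouse 2, at 7.51, against 4.15 to 4.45 in the other vehicle mice. Its difference of −0.63 became 0.01 without that mouse. The LCA minus RCA difference with vehicle was −1.34 for Klf2, −1.82 for Nos3 and −5.39 for Klk10, all past the adjusted threshold.

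Inflammation and adhesion genes were lower in 11 of 15, with a median of −0.22. At an unadjusted p under 0.05 there were 2 higher and 2 lower members, where 1.15% of all genes were higher and 1.60% lower. Selp, the leukocyte-tethering P-selectin, differed by −0.42 and the adhesion molecule Vcam1 by −0.67, while the neutrophil chemokine Cxcl1 differed by 0.64 and the vasoconstrictor endothelin, Edn1, by 0.47. Vcam1 read 7.48 to 8.14 with atorvastatin and 7.97 to 9.78 with vehicle, the top value again in vehicle mouse 2, and without it the difference was −0.35. Icam1, another adhesion molecule, differed by −0.22, and the monocyte chemokine Ccl2 by −0.16 with all 10 values below the array median.

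Immune effector lists leaned lower without any call. The interferon response had 9 of 10 members lower with a median of −0.30, and −0.40 without vehicle mouse 2. Its mean was highest in vehicle mouse 3, at 8.91, and between 7.27 and 8.17 in the atorvastatin mice. Antigen presentation had 9 of 9 lower with a median of −0.26, and −0.17 without vehicle mouse 2, and in the RCA of the same mice the median was −0.41. Complement had 8 of 11 lower with a median of −0.36, with the lowest values in the factor B gene Cfb (−0.79) and the component C4b (−0.73). None of these 3 lists held a member at an unadjusted p under 0.05.

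T cell markers were lower in all 7 tested, with a median of −0.57, and 5 of 7 had an unadjusted p under 0.05, where 1.60% of all genes did. None passed the adjusted test. Besides Cd3g these were Cd3e (−1.02), Cd2 (−0.57), Cd3d (−0.56) and Cd8b1 (−0.51). Cd8b1 was above the array median on only 4 of 10 arrays. The 7 markers were read on the same arrays, so the count of 5 does not stand for separate results. The mean of the list was 5.15, 5.44, 4.96, 4.51 and 4.68 with atorvastatin and 5.30, 6.49, 6.40, 4.93 and 5.30 with vehicle. Vehicle mice 2 and 3 were high and the other 3 lay within the atorvastatin range. In atorvastatin mice 9 and 10 the mean of the list was below the array median. Without vehicle mouse 2 the median difference of the markers was −0.43. In the RCA it was 0.04. Genes of developing T cells, chosen after their values were seen, were high in the same array: Satb1 differed by −1.19 and Rag1 by −1.07, and by −0.61 and −0.17 without vehicle mouse 2. Their part in the T cell values was not tested.

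Smooth muscle, matrix and YAP/TAZ target lists had medians above 0 that shrank without 1 array. The 8 tested smooth muscle markers were all higher with a median of 0.80, and 0.18 without vehicle mouse 2. Cnn1, the contractile protein calponin, differed by 1.16 (0.39 without that mouse), and Actg2, a smooth muscle actin, by 1.11 (0.26). Extracellular matrix genes were higher in 18 of 20 with a median of 0.35, and −0.00 without the mouse. Fn1, fibronectin, read 11.76 to 12.01 with atorvastatin, 10.05 in vehicle mouse 2 and 11.70 to 12.11 in the other 4. The 8 tested targets of the mechanosensing co-activators YAP and TAZ were all higher, with a median of 0.40 that became 0.18. Ajuba, a LIM protein that inhibits the Hippo kinases, differed by 0.50 and by 0.25 without the mouse. The part of the smooth muscle content of this array in these lists was not tested.

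Among matrix proteases and inhibitors 8 of 16 were higher and 8 lower, with a median of −0.02. Mmp12, the macrophage elastase, differed by −1.17 (−0.66 without vehicle mouse 2) with overlapping groups, and Mmp2, a gelatinase, by 0.47 (−0.04 without it). In the Notch list, Dll1, a ligand, differed by −1.0 and Notch3, the receptor of mural cells, by 0.85, both with overlap. Nox4, the oxidase that makes hydrogen peroxide in vessel walls, differed by 1.05, and by 0.55 without vehicle mouse 2.

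The glucocorticoid-responsive list had 6 of 10 higher with a median of 0.12, or 0.21 without vehicle mouse 2. At an unadjusted p under 0.05, where 1.15% of all genes were higher, it had 3 higher members: Zbtb16, Fkbp5 and Pdk4, the kinase that shuts down pyruvate oxidation (0.63). Tsc22d3, also a classical target, was the lowest member at −0.35. The mean of the list was 7.99 to 8.68 with atorvastatin and 7.78 to 8.05 with vehicle, with overlap in 1 atorvastatin mouse. In the RCA the list median was 0.27. In the circadian list Per2, a clock repressor, had groups apart: 5.92, 6.11, 6.83, 6.72 and 6.30 with atorvastatin against 5.22 to 5.62 with vehicle (0.86, adjusted p = 1). A second probe set of Per2 differed by 0.37. Of all clock genes 9 of 14 were higher with a median of 0.04, and the time of day at which arteries were taken is not in the labels.

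Cell cycle genes were lower in 19 of 22 with a median of only −0.11, and the atorvastatin mice spanned 6.08 to 7.29 in the mean of the list, around 6.65 to 6.97 with vehicle. The unfolded protein response (8 of 18 higher, median −0.01), TGF-beta and mesenchymal transition (7 of 14, median 0.01), NRF2 and oxidative stress (7 of 14, median −0.01) and hypoxia and glycolysis lists (5 of 15, median −0.04) were close to 0. Immediate early genes were lower in 12 of 15 with a median of −0.10, coagulation genes in 6 of 9 with −0.09, and angiogenic tip cell genes were higher in 9 of 11 with 0.14, or 0.07 without vehicle mouse 2, where the mean of that list was lowest. Endothelial markers were lower in 11 of 15 with a median of −0.06, and none passed, as for all genes tested.

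**Figure D5:**
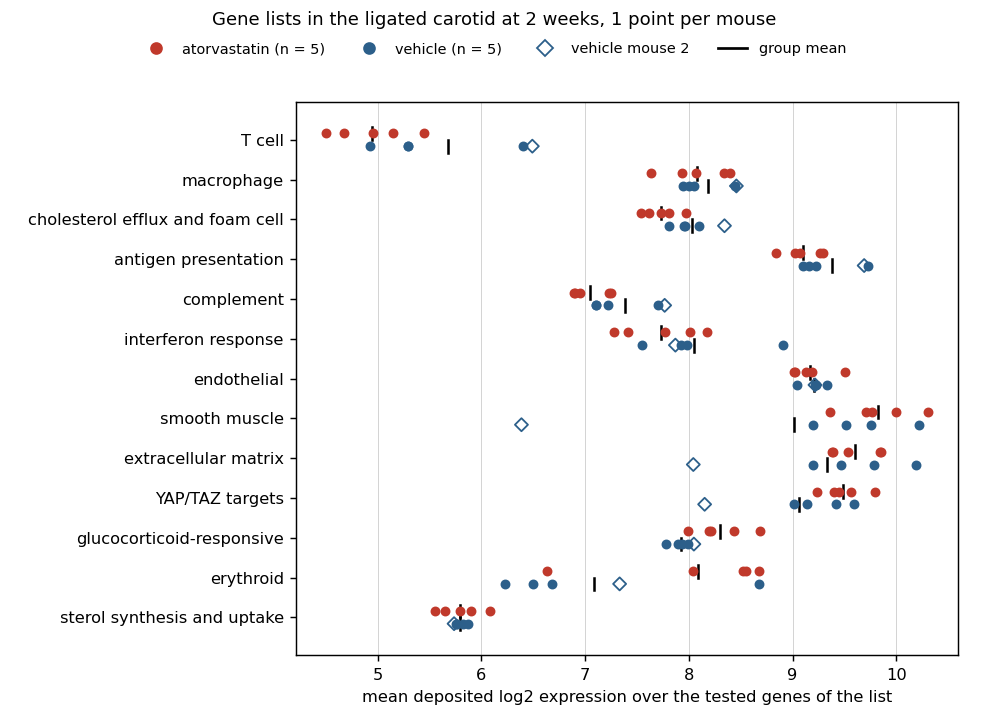
Mean deposited log2 expression over the tested genes of 13 lists in the ligated carotid at 2 weeks, 1 point per mouse with the group mean as a bar (red, atorvastatin, n = 5; blue, vehicle, n = 5; open diamond, vehicle mouse 2). Vehicle mouse 2 is at 6.39 for smooth muscle; the T cell points of the atorvastatin mice lie between 4.51 and 5.44.

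Erythroid genes, which mark blood in the preparation, were higher in 4 of 5 tested members, 3 of them at an unadjusted p under 0.05, where 1.15% of all genes were. The haem synthesis enzyme Alas2 differed by 0.84 and the globins Hbb-b2 and Hba-a1 by 2.15 and 2.20. Over 3 probe sets each, the differences ran from 0.07 to 2.15 for Hbb-b2 and from 1.71 to 2.20 for Hba-a1. Slc4a1, the member that was lower, had 2 probe sets, at −0.40 and 0.22. Hbb-b2 read 11.65, 7.85, 10.83, 11.45 and 11.37 with atorvastatin and 7.61, 9.11, 7.54, 7.11 and 11.01 with vehicle. It was thus high in 4 of 5 atorvastatin mice and in vehicle mouse 5. In the RCA the list median was 1.66. The part of blood content in the other differences was not tested.

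Spread within the groups was uneven, mostly through vehicle mouse 2. The median SD over genes was 0.213 with atorvastatin and 0.242 with vehicle, and 0.206 with vehicle without that mouse. The SD was the larger in the vehicle group for 6772 genes (59.7%), and for 5478 (48.3%) without it. An SD of at least 1 was reached by 29 genes with atorvastatin and 234 with vehicle, or 66 with vehicle when that mouse was left out. In the atorvastatin group the widest spread was in Car3 and Dpt: Car3, a carbonic anhydrase of fat and muscle, had an SD of 2.38, Dpt of 2.08, the fibroblast receptor Scara5 of 1.67 and the globins Hba-a1 and Hbb-b2 of 1.65 and 1.59. In the vehicle group they were the pericyte gene Rgs5 (2.39), Rag1 (2.18), Itga8 (2.14), Dpt (2.14) and Myh11 (2.13). Without vehicle mouse 2 they were Car3 (1.90), Hba-a1 (1.84), the immunoglobulin segment Igkj1 (1.82), the neutrophil protein S100a9 (1.81) and Cxcl9 (1.73). RNA quality did not separate the groups: the 3′ minus 5′ signal of the Gapdh control probe sets was 3.98 ± 0.34 with atorvastatin and 4.0 ± 0.46 with vehicle (SD, n = 5 each; exact permutation test over 252 splits, two-sided p = 0.905).

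In the RCA of the same mice 1 gene passed between the treatments (1 of 11344, 0.00882%), and 612 had an unadjusted p under 0.05 (5.39%). That gene was Cyth3, an exchange factor for Arf GTPases, which rose with atorvastatin by 0.74 (adjusted p = 0.0237 by limma), at 9.76 to 10.40 against 8.99 to 9.64. In the LCA it differed by 0.11 (9.54 to 9.89 against 9.39 to 10.03), and the difference between arteries did not pass (adjusted p = 0.334). The Cyth3 call was lost without atorvastatin mouse 8, 9 or 10 and without vehicle mouse 2, 3 or 4.

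The treatment difference at 2 weeks was also tested against the mean of the differences at 12 h, 24 h and 48 h after ligation in other mice. No gene passed (0 of 11344, 0%), the smallest adjusted p was 0.647, and 238 genes had an unadjusted p under 0.05 (2.10%). Mmp13 differed by −0.01, 0.17 and −0.29 at the earlier times and Dnase1l3 by −0.04, 0.10 and −0.68. For Spic the earlier differences were 0.06, 0.14 and −0.46, and for Mia 0.10, −0.27 and 0.18. Zbtb16 differed by −0.13, 0.57 and 1.40. The differences at 2 weeks were larger than these for each of the 5 genes, which were chosen at 2 weeks, and none of the 5 passed the test of that contrast.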

How the data were processed

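Arrays were Affymetrix HT MG-430 PM, 1 per artery. The deposited values are log2 signals from RMA, which the submitters' processing notes name without a version. The 45118 probe sets were 81 controls, 28898 with exactly 1 symbol in the annotation, which were kept, 551 with more than 1 and 15588 unnamed. The probe set of highest mean stood for a gene, and genes above the array median on at least 4 of 78 arrays were tested (11344 of 17097). Levels of different probe sets were not compared.

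R 4.3.3 with limma 3.58.1 fitted all 39 LCA arrays by group, so that 8 groups shared 1 estimate of the spread; LCA minus RCA was fitted per mouse, since both arteries come from the same animal. The code was tested on simulated data. Precision is limited by having 5 mice per group. The p-values rest on a spread between mice pooled over all 8 groups and moderated across genes. They therefore do not measure the spread within the groups compared here alone, which can be larger or smaller for a gene.

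Named genes were the 12 of smallest p in each direction, members of 40 lists and a fixed set. Members and lists were chosen with earlier results of these data known. No set test was run; list medians stand beside the median of all genes. Over 40 lists, 510 genes were listed, of which 447 were on the array with a symbol and 392 tested; of B cell and thyroid markers none was. Some genes of the fixed set and lists are not reported here. Alternatives changed the filter, scaling, probe choice, variance model, weights, blocks and mice.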

Additional observations from a re-analysis of the deposited data

Results flagged for a closer look

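In groups of 5, the highest or lowest mouse was set against the other 4 by Dixon's criterion (gap over range above 0.71) for 36 genes and 37 list means in both groups. Of 146 groups, 5 held a mouse apart; chance gives about 1 in 20 groups. All 5 were in the vehicle group, and 4 were vehicle mouse 2. Hspb7 was lowest there at 5.015, with 6.932 to 7.537 in the other 4. Klk10 was highest there at 7.512, with 4.15 to 4.45 in the others. The smooth muscle list mean was lowest there at 6.387 (others 9.196 to 10.22), and so was the angiogenic tip cell list mean at 5.541 (others 5.994 to 6.138). The cell cycle list mean was highest in vehicle mouse 4 at 6.966 (others 6.65 to 6.698).

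The treatment difference itself differed between the ligated and the control artery for Mmp13 (LCA difference minus RCA difference −1.80) and Dnase1l3 (−1.93), each with an adjusted p of 0.00564 by limma. In the RCA both genes read below the array medians in every mouse, where a treatment difference could hardly show. Neither gene passed within the LCA alone.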

How the results depend on the processing

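The LCA count of genes that passed, 0, became 18 with array weights, 18 with the mouse as a random replicate block over both arteries, 2 after a further quantile normalization and 2 without the 2 most distant mice, vehicle mice 2 and 4 (chosen after seeing the data). It was 0 to 7 on leaving out 1 mouse. At an adjusted p under 0.1 it was 2, and at a difference of at least 1 with an unadjusted p under 0.05 it was 57. The artery test count of 2 became 18 with array weights, 5 without both distant mice, 8 at an adjusted p under 0.1, 107 by the fold rule, and 0 with only the 2-week arrays, with a stricter filter that neither gene passed, or with no replicate block (Mmp13 adjusted p = 0.354, Dnase1l3 0.554); leaving out 1 mouse gave 1 to 12. The time contrast count of 0 became 1 with array weights, 0 to 1 on leaving out 1 mouse and 56 by the fold rule. The RCA count of 1 became 0 with only the 2-week arrays, quantile normalization, every probe set or without both distant mice, 2 with a trended robust variance, 4 with array weights, 17 by the fold rule and 0 to 2 on leaving out 1 mouse. The vehicle artery count of 3148 became 6400 over every probe set and 1324 by the fold rule. The replicate block pairs arteries of 1 animal, whose deviations correlated at −0.08 to 0.14; treatments share no replicate number.

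The sign of 5 genes named for their function changed between settings, and none had passed. Insig1 was 0.0031 after quantile normalization, 0.0048 after centring, 0.0763 with array weights, 0.0004 with the Gapdh end ratio as covariate, 0.2755 without both distant mice and −0.0837 to 0.1408 on leaving out 1 mouse. Nos3 was −0.0413 with array weights, −0.0198 without both distant mice, and −0.0958 to 0.1389 on leaving out 1 mouse. Klk10 was 0.0461 without both distant mice and −0.8346 to 0.0059 on leaving out 1 mouse. On leaving out 1 mouse Sqle ran from −0.0621 to 0.3464 and Idi1 from −0.2199 to 0.0091. The causes were not tested. Of the other single-gene values 740 kept direction and call, 50 newly passed and 6 no longer passed; of list medians 800 of 812 moved by less than 1 SD. Another scaling moved the median of all genes from −0.007 to at most 0.0032. Of the 24 leading genes, 5 were above the array median on 5 or fewer of 10 arrays, where signal over background limits precision.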

Other observations

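More of the genes of developing T cells are given here, chosen after their values were seen, with no test. Rag1 in the LCA was 8.55 in vehicle mouse 2, 5.64 in atorvastatin mouse 8 and 5.32 in vehicle mouse 5, and 3.14 to 4.23 in the other 7 mice. In the RCA it was 7.70 and 7.25 in atorvastatin mice 8 and 9, 7.47 and 6.30 in vehicle mice 2 and 3, and 3.18 to 3.72 in the other 6. Satb1, a chromatin organiser of thymocytes, followed the same mice in the RCA, at 7.44, 5.91, 6.92 and 5.72, with 2.80 to 3.52 in the other 6. In the LCA it was 7.75 in vehicle mouse 2. The terminal transferase Dntt was 7.89 in the LCA of vehicle mouse 2 and 5.35 to 6.38 in the other 9. Rag2 was 4.51 there and 3.07 to 3.598 in the other 9. Some other genes of such cells did not stand out in that array: in the LCA Themis was 4.04 there and 3.87 to 4.40 in the other 9, Cd4 was 4.17 there and up to 4.64, in vehicle mouse 5, and Ccr9 was 5.58 there and 5.61 in atorvastatin mouse 10. In the RCA Themis was highest in vehicle mouse 4, at 4.64.

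In the LCA of vehicle mouse 2, Itga8 at 6.97 lay within the range of the RCA arrays (5.54 to 8.75) and below the other 9 LCA arrays (11.22 to 12.15). Lyve1 at 7.94 lay just above the RCA range of 5.71 to 7.85 and above the other 9 LCA arrays (3.54 to 5.04).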
